A study of Homo sapiens with 9 samples.

Results

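The genes described here carry glycerol into cells, phosphorylate or dephosphorylate it, fix it into lipids and release it again from stored fat. They include the water channel AQP1, which also conducts glycerol weakly, the water and glycerol channel AQP3 and the glycerol kinase GK. The others are the glycerol-3-phosphate dehydrogenases GPD1L and GPD2, the phosphatase PGP, the acyltransferase GPAM and the lipases PNPLA2, LIPE and MGLL. The list was drawn up by gene symbol, and each of the 10 was found by its Ensembl identifier among the 63187 genes of the count table. Testing required 10 counts or more in 3 of the libraries, and 9 of the 10 were tested. AQP1 was left out, with under 10 counts in all 9 libraries. The other 9 had at least 10 counts in every library.

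The RNA came from BEAS-2B, an immortalized human bronchial epithelial cell line. Cells were kept in medium alone (control) or treated for 24 h with an aerosol condensate diluted to 2% (v/v). PG/VG was the condensate of the carrier liquid, a mixture of propylene glycol and vegetable glycerol in equal parts, and EC that of a Virginia tobacco flavored liquid with propylene glycol, glycerol and 18 mg/mL nicotine. Each condition had 3 libraries with the replicate numbers 2, 3 and 4, which the labels also give as the batch, and all of them came from the same cell line. Condensates also held moisture from the air, and no group received glycerol alone, so an effect of glycerol and an effect of the other constituents cannot be told apart. The counts measure RNA relative to the rest of the cells' RNA, and a change in RNA per cell cannot be told apart from a change in the mix of cells.

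Glycerol crosses membranes through aquaglyceroporins, and glycerol kinase traps it as glycerol-3-phosphate. From there it can be oxidized to dihydroxyacetone phosphate and enter glycolysis, be acylated into phospholipids and triglycerides, or be hydrolyzed back to glycerol. Lipolysis runs in steps, with PNPLA2 removing the first fatty acid of a triglyceride, LIPE acting on diglycerides, and MGLL freeing glycerol from monoglycerides. In airway epithelium AQP3 is known as a basal cell channel for water and glycerol.

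Libraries held between 16168260 and 24917838 counts. Levels are given as CPM, counts scaled to the library size after TMM, which corrects for differences in library composition. Of the 7 epithelial markers on the list, KRT7, KRT8, KRT18 and KRT19 were at 16.8 CPM or more in every library, while EPCAM and CDH1 reached at most 1.93 and 1.59 CPM and KRT5 had at most 1 count. The summed level of the epithelial list ranged from 1776 to 2844 CPM among control libraries, from 1721 to 2737 with PG/VG and from 1460 to 2287 with EC. Of the 5 adipocyte markers, 4 were at 0 in every library and PLIN1 had at most 4 counts. All 4 leukocyte markers, 4 of the 5 fibroblast markers and 2 of the 3 endothelial markers stayed below 1 CPM, with COL1A1 and CDH5 as the exceptions. Of the exon length of the leukocyte marker CD68, 85.6% overlaps other genes. Reads in such overlaps were not counted by the authors, so the low count of CD68 says little about its level. The summed fibroblast list ranged over the same groups from 51.7 to 89.1, 64.5 to 107 and 58.9 to 100.4 CPM, and the endothelial list from 5.15 to 7.77, 4.51 to 6.43 and 4.24 to 5.70 CPM. The part of these markers in the results was not tested.

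Levels were compared between genes after division by the exon length of each gene, as CPM per kb. In the control, PNPLA2 had the highest level with 32.8 CPM per kb, above PGP with 14.9 and GPD2 with 14.5 CPM per kb, whose ranges overlapped. GPD1L followed with 6.54 CPM per kb and MGLL with 5.59 CPM per kb, again with overlapping ranges. GK and GPAM were next, at 3.87 and 3.58 CPM per kb, and did not differ beyond their spread either. LIPE was at 1.02 CPM per kb and AQP3 at 0.485 CPM per kb, with no overlap between these neighbours in the control. In PG/VG and EC the ranges of LIPE and AQP3 overlapped, with AQP3 at 0.756 and 0.823 CPM per kb and LIPE at 0.902 and 0.863 CPM per kb. AQP1 was last in every condition. The exon lengths join all annotated transcripts of a gene, so genes with many long transcripts, such as MGLL with 11298 bases, are placed lower by this scale.

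**Figure D1:**
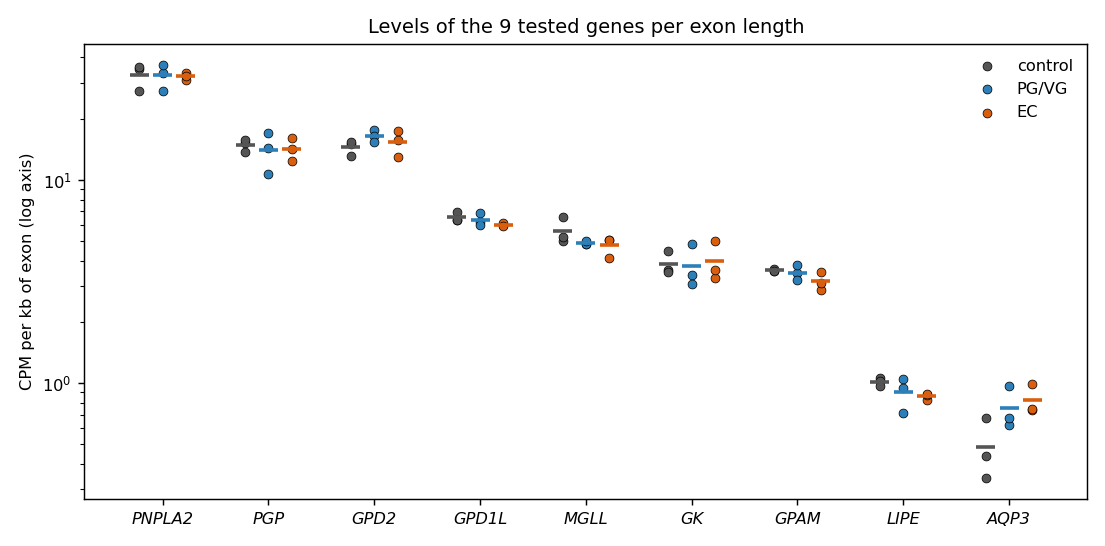
Level of each of the 9 tested genes in CPM per kb of exon, on a log axis, with 1 point per library and a bar for the mean of 3 libraries in control, PG/VG and EC. The genes are in the order of their control means, from PNPLA2 at 32.8 to AQP3 at 0.485 CPM per kb, and AQP1 is not drawn because 6 of its 9 libraries were at 0.

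Of the 9 tested genes, 1 rose and none fell in EC vs. control, where 13.5% of all 16030 genes tested were DEGs, defined by an adjusted p under 0.05. The gene that rose was AQP3. At an unadjusted p under 0.05 in edgeR, 3 of the 9 differed in this comparison, AQP3, GPAM and MGLL, near the 27.4% of all genes that did. At an adjusted p under 0.05, DESeq2 with the replicate number in the model called 0, against 10.8% of all genes. ComBat-Seq batch adjustment followed by DESeq2 called 2, AQP3 and MGLL, against 19.2% of all genes. In PG/VG vs. control 0 of the 9 passed the threshold in edgeR's quasi-likelihood test, against 4.54% of all genes. DESeq2 called 0 there, against 4.47% of all genes, with no adjusted p for AQP3. At an unadjusted p under 0.05, 3 of the 9 differed there, GPD2, AQP3 and MGLL, against 20.1% of all genes. In EC vs. PG/VG 0 of the 9 passed in edgeR, against 0.855% of all genes, of which 0.555% were higher and 0.299% lower in EC. At an unadjusted p under 0.05 in edgeR, 0 of the 9 differed between the treatments, against 12.9% of all genes. DESeq2 called 0 at an adjusted p under 0.05, against 1.09% of all genes, again with no adjusted p for AQP3. The median log2 fold change (LFC) of the 9 genes was −0.072 for EC and −0.043 for PG/VG against the control, and −0.046 between EC and PG/VG. Over all genes tested it was 0.0078, 0.013 and 0.0024. The CPM of the EC and control libraries did not overlap for 4 of the 9 genes, AQP3, GPD1L, GPAM and LIPE, where 17.3% of all genes showed no overlap. This held for 0 of the 9 between PG/VG and the control, against 14.2% of all genes, and for 0 of the 9 between EC and PG/VG, against 7.91%. The comparisons of EC and of PG/VG with the control share the same 3 control libraries.

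**Figure D2:**
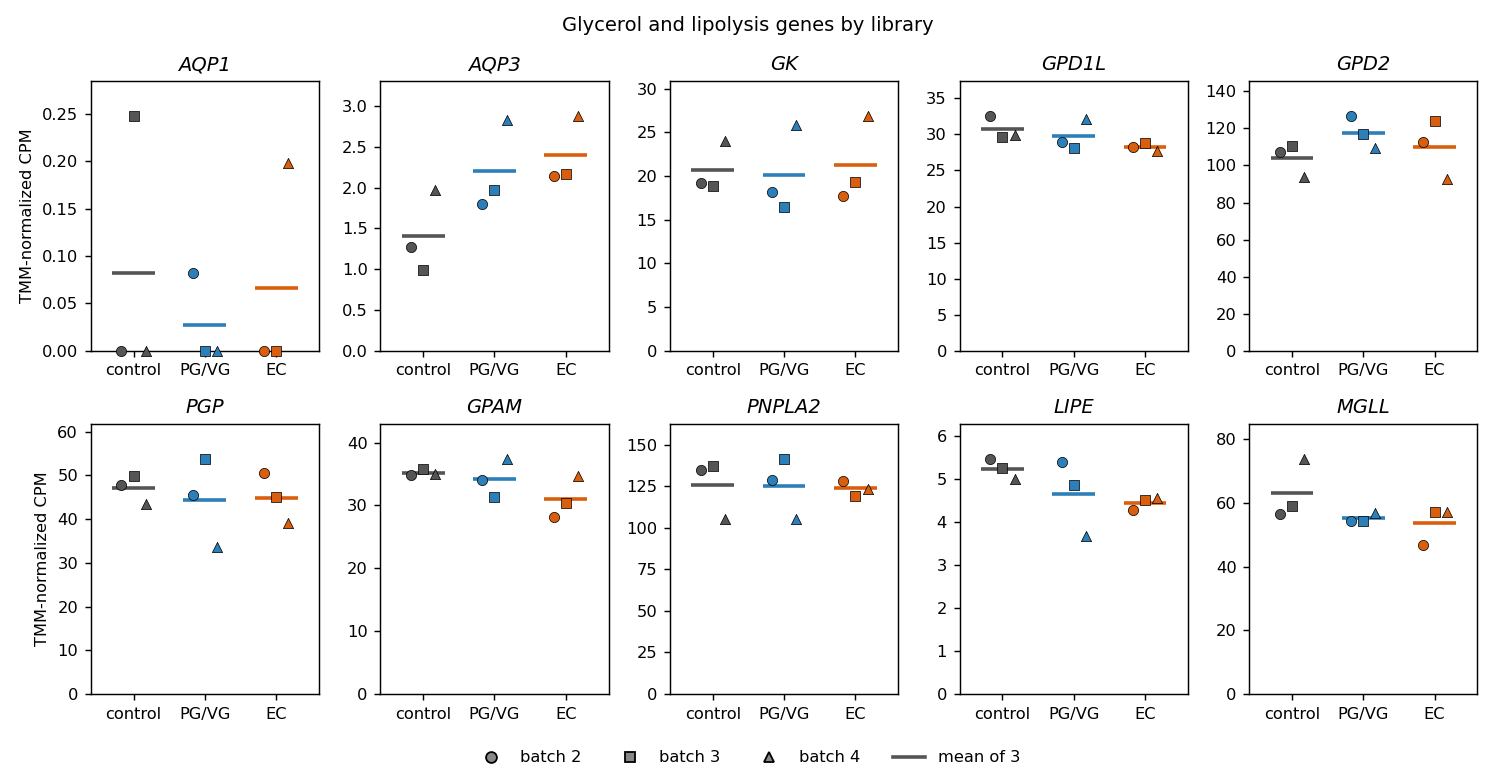
TMM-normalized CPM of the 10 genes in each library, with the condition on the horizontal axis, the batch as the symbol and a bar for the mean of 3 libraries; each panel starts at 0 and has its own scale. AQP3 was at 0.991 to 1.97 CPM in the control and 2.14 to 2.88 CPM in EC, while GK was highest in batch 4 in every condition and AQP1 had under 10 counts in every library.

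AQP3 (ENSG00000165272, chromosome 9 from 33441156 to 33447596, minus strand) encodes an aquaglyceroporin that passes water, glycerol and hydrogen peroxide. Its level was 1.27, 0.991 and 1.97 CPM in control replicates 2, 3 and 4, from 20, 16 and 35 counts. In PG/VG it was 1.80, 1.97 and 2.83 CPM, and in EC 2.14, 2.17 and 2.88 CPM. Every EC library was above every control library, whereas the lowest PG/VG library lay below the highest control library. Control libraries averaged 1.41 ± 0.504 CPM, PG/VG libraries 2.20 ± 0.552 CPM and EC libraries 2.40 ± 0.416 CPM (SD, n = 3 each). The fold change in EC vs. control was 1.71 (LFC 0.78, SE 0.24; Benjamini-Hochberg adjusted p = 0.0358 by the quasi-likelihood test of edgeR), with higher values in all 3 batches.

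In PG/VG vs. control AQP3 was also higher in 3 of 3 batches, with a fold change of 1.56 and a 95% interval of 1.09 to 2.22, and did not pass the threshold (edgeR, adjusted p = 0.141). Between EC and PG/VG the fold change was 1.10, with a 95% interval of 0.805 to 1.504 (edgeR, adjusted p = 0.852). The EC call was close to the threshold. It was lost in each of the 6 fits that left out a control or EC library, where the adjusted p ranged up to 0.204 in edgeR, and in DESeq2 (adjusted p = 0.101). It was also lost without the replicate number in the model (edgeR, adjusted p = 0.380), with no filter on low counts (edgeR, adjusted p = 0.0504) and without batch 4 (edgeR, adjusted p = 0.0885), while the LFC stayed between 0.63 and 0.91 over all 18 alternatives.

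AQP1 (ENSG00000240583, chromosome 7 from 30911853 to 30925517, plus strand) encodes a water channel of endothelium and red blood cells that also conducts glycerol weakly. It had 4 counts in control replicate 3, 2 in PG/VG replicate 2, 4 in EC replicate 4 and 0 in the other 6 libraries. In those 6 libraries a count of 0 allows up to 3 counts, between 0.119 and 0.191 CPM. Of its exon length, 27.9% overlaps another protein-coding gene on the same strand (ENSG00000250424). Reads in such overlaps were not counted by the authors, and that gene itself had 0 counts in every library. No comparison was made for AQP1 at this depth.

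The promoters of the channels are shown because AQP3 is the gene that rose and AQP1 the other channel of the list, with under 10 counts. The sequences are the 250 bases before the RefSeq start on GRCh38.p14, 5′ to 3′ on the gene's strand, with TATAAA and GGGCGG (the cores of a TATA box and a GC box, on either strand) in capitals.
AQP3, chr9:33447594-33447843, minus strand: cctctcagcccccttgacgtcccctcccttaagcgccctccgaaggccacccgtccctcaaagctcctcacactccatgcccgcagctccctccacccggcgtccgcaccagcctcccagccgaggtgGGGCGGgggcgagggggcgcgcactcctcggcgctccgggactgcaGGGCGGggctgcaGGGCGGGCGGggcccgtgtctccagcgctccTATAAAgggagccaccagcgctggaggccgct
AQP1, chr7:30911603-30911852, plus strand: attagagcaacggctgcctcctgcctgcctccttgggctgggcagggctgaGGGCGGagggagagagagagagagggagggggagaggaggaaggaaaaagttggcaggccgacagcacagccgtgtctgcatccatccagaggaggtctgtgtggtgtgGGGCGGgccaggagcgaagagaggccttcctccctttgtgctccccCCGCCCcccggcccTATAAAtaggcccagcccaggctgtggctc
The TATAAA match began 32 bases before the start of AQP3 and 30 bases before that of AQP1. RefSeq windows were found for 9 of the 10 genes, 11 windows in all. Of these 11, the 2 of AQP3 and AQP1 held TATAAA, as did 10.7% of 35116 RefSeq windows of this length. GGGCGG was in 9 of the 11 windows and in 42.6% of all windows, with 4 matches for AQP3, 2 of which overlap, and 3 for AQP1. A match describes the letters only.

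Over the 9 libraries, after subtraction of the batch means, the genes whose log2 CPM was most like that of AQP3 were HERC6 (Pearson r = 0.995), KIT (r = 0.993) and OAS1 (r = 0.993). HERC6 and OAS1 are known as interferon-induced genes and KIT as a receptor tyrosine kinase. They are the highest among the tested genes, over 9 libraries that share batches and conditions, and are given as a description.

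GK (ENSG00000198814, chromosome X from 30653359 to 30731462) encodes the kinase that makes glycerol-3-phosphate from glycerol. Its level was 19.2, 18.9 and 24.0 CPM in control replicates 2, 3 and 4, 18.2, 16.5 and 25.8 CPM in PG/VG and 17.7, 19.3 and 26.8 CPM in EC. The batch 4 library was the highest in each condition, and the conditions overlapped. The fold change was 1.02 in EC vs. control, with a 95% interval of 0.886 to 1.17 (edgeR, adjusted p = 0.893), and 0.967 in PG/VG vs. control, with an interval of 0.840 to 1.11 (edgeR, adjusted p = 0.835). With 3 libraries per condition, changes within these intervals are compatible with the data, and an unchanged level was not shown. GK3, a copy of GK elsewhere in the genome, had 0 to 6 counts per library, and reads that fit both were not counted by the authors.

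GPD2 (ENSG00000115159, chromosome 2 from 156435290 to 156613735) encodes the mitochondrial flavin enzyme that oxidizes glycerol-3-phosphate and passes the electrons to ubiquinone. Its level was 107, 110 and 93.8 CPM in control replicates 2, 3 and 4, 127, 117 and 109 CPM in PG/VG and 113, 124 and 92.9 CPM in EC. The PG/VG libraries were higher than the control of the same batch in 3 of 3 batches, while the ranges overlapped. The PG/VG fold change was 1.14, with a 95% interval of 1.02 to 1.26 and an unadjusted p of 0.0194, and did not pass the threshold after adjustment (edgeR, adjusted p = 0.154). In EC vs. control the fold change was 1.06, with an interval of 0.950 to 1.17 (edgeR, adjusted p = 0.539).

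GPD1L (ENSG00000152642, chromosome 3 from 32105689 to 32168709) encodes a cytosolic protein related to the NAD-dependent dehydrogenase GPD1, which itself had at most 6 counts per library. GPD1L was at 32.5, 29.7 and 29.9 CPM in control replicates 2, 3 and 4, at 29.0, 28.2 and 32.2 CPM in PG/VG and at 28.3, 28.9 and 27.7 CPM in EC. All EC libraries were below all control libraries, by a small margin. The EC fold change of 0.922, with a 95% interval of 0.813 to 1.05, did not pass the threshold (edgeR, adjusted p = 0.424), and in PG/VG it was 0.970, with an interval of 0.856 to 1.10 (edgeR, adjusted p = 0.836).

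PGP (ENSG00000184207, chromosome 16 from 2211593 to 2214840) encodes a phosphatase that can return glycerol-3-phosphate to glycerol. It was at 47.9, 49.8 and 43.5 CPM in control replicates 2, 3 and 4, at 45.5, 53.7 and 33.6 CPM in PG/VG and at 50.6, 45.0 and 39.1 CPM in EC, and the conditions overlapped. The fold change was 0.952 in EC (95% interval 0.834 to 1.09, adjusted p = 0.672 in edgeR) and 0.928 in PG/VG (95% interval 0.813 to 1.06, adjusted p = 0.558 in edgeR). Of its exon length, 18.3% overlaps a lncRNA on the opposite strand that had 0 counts in every library.

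GPAM (ENSG00000119927, chromosome 10 from 112149865 to 112215377) encodes the mitochondrial acyltransferase that attaches the first fatty acid to glycerol-3-phosphate. It was at 34.7, 35.7 and 35.0 CPM in control replicates 2, 3 and 4, at 34.0, 31.4 and 37.3 CPM in PG/VG and at 28.1, 30.3 and 34.6 CPM in EC. The EC values lay below all control values, and in batch 4 the difference was small. The fold change in EC vs. control was 0.880, with a 95% interval of 0.776 to 0.997 and an unadjusted p of 0.0445, and was not past the threshold after adjustment (edgeR, adjusted p = 0.170). In PG/VG vs. control it was 0.974, with an interval of 0.860 to 1.10 (edgeR, adjusted p = 0.853).

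PNPLA2 (ENSG00000177666, chromosome 11 from 818914 to 825573) encodes adipose triglyceride lipase, which starts lipolysis at the lipid droplet. Its level was 135, 137 and 105 CPM in control replicates 2, 3 and 4, 129, 141 and 105 CPM in PG/VG and 128, 119 and 124 CPM in EC. The conditions overlapped, and batch 4 was lowest in the control and in PG/VG but not in EC. The fold change was 0.992 in EC vs. control, with a 95% interval of 0.883 to 1.11 (edgeR, adjusted p = 0.949), and 0.995 in PG/VG vs. control, with an interval of 0.886 to 1.12 (edgeR, adjusted p = 0.978).

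LIPE (ENSG00000079435, chromosome 19 from 42401514 to 42427388) encodes hormone-sensitive lipase. It was at 5.46, 5.26 and 5.01 CPM in control replicates 2, 3 and 4, from 85 to 89 counts, at 5.41, 4.87 and 3.69 CPM in PG/VG and at 4.28, 4.51 and 4.56 CPM in EC. All EC libraries were below all control libraries. The fold change in EC was 0.847, with a 95% interval of 0.669 to 1.07 (edgeR, adjusted p = 0.374), and in PG/VG 0.883, with an interval of 0.698 to 1.12 (edgeR, adjusted p = 0.590). The antisense gene LIPE-AS1 covers 9.69% of the exon length of LIPE and had 10 to 19 counts per library.

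MGLL (ENSG00000074416, chromosome 3 from 127689062 to 128052190) encodes monoglyceride lipase, which releases glycerol in the last step of lipolysis and also degrades the endocannabinoid 2-arachidonoylglycerol. It was at 56.6, 59.1 and 73.7 CPM in control replicates 2, 3 and 4, at 54.4, 54.4 and 56.8 CPM in PG/VG and at 46.7, 57.1 and 57.3 CPM in EC. Each treated library was below the control of its batch, and the highest treated library was above the lowest control library. The fold change was 0.851 in EC, with a 95% interval of 0.757 to 0.958 and an unadjusted p of 0.00962, just short of the threshold after adjustment (edgeR, adjusted p = 0.0637). In PG/VG it was 0.879, with an interval of 0.781 to 0.989 and an unadjusted p of 0.0331 (edgeR, adjusted p = 0.203). The EC comparison of MGLL passed the threshold with RLE normalization (edgeR, adjusted p = 0.0485), with ComBat-Seq and DESeq2 (adjusted p = 0.0174) and without EC replicate 3 (edgeR, adjusted p = 0.0345). It did not pass in the other 15 of the 18 alternatives. Among these, the LFC was −0.15 without control replicate 4 (edgeR, adjusted p = 0.343) and −0.18 without batch 4 (edgeR, adjusted p = 0.257).

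**Figure D3:**
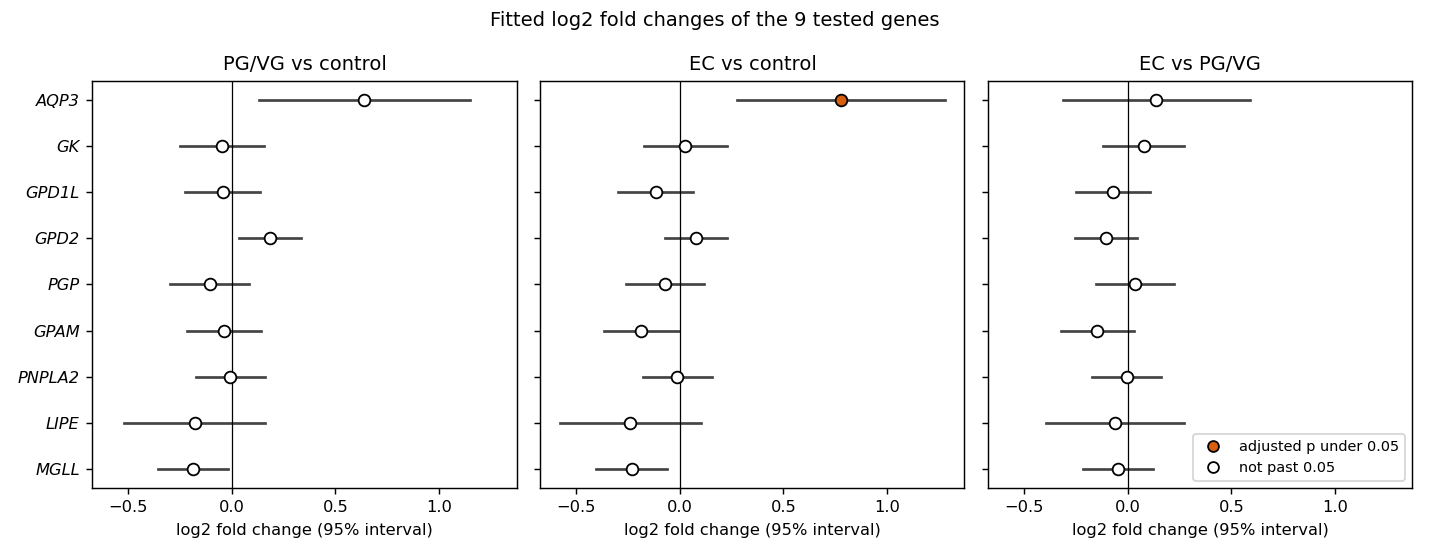
Fitted log2 fold changes of the 9 tested genes in the 3 comparisons, with 95% intervals as lines and filled points for an adjusted p under 0.05. AQP3 in EC vs. control, at 0.78, is the single filled point, and the intervals of GK, GPD1L, PGP, PNPLA2 and LIPE cross 0 in each comparison.

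No difference between EC and PG/VG passed the threshold for any of the 9 genes. Apart from AQP3 the fold changes between the treatments lay between 0.903 for GPAM and 1.05 for GK. Their 95% intervals were 0.799 to 1.02 for GPAM and 0.919 to 1.21 for GK, and that of LIPE was 0.761 to 1.21. An unchanged level was not shown for any of them, since effects within these intervals are compatible with the data.

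The genes around these steps were followed with a list of 53 further genes, of which 35 were tested. With EC 7 of the 35 rose against the control and 0 fell, with a median LFC of 0.11 against 0.0078 for all genes, of which 8.07% rose and 5.38% fell. With PG/VG 2 of the 35 rose and 0 fell, with a median LFC of 0.032, where 2.63% of all genes rose and 1.9% fell. In EC vs. PG/VG 1 of the 35 was higher in EC, where 0.555% of all genes were. By an unadjusted p under 0.05 in edgeR, 11, 7 and 7 of the 35 genes differed in these comparisons, against 27.4%, 20.1% and 12.9% of all genes. The 18 genes outside the test had at most 7 counts in a library, and 10 of the 18 were at 0 in every library. They included the glycerol channels AQP7, AQP9 and AQP10, the kinase GK2, the dehydrogenase GPD1 and the droplet proteins PLIN1, CIDEA and CIDEC. CIDEB, also at 0, has 100% of its exon length overlapped by genes on the opposite strand, where reads may not have been counted.

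The SLC37 family was listed under its historical name, glycerol-3-phosphate carriers. Of its 4 genes, 2 passed the threshold as higher with EC and 0 with PG/VG. Over all genes tested these shares were 8.07% and 2.63%. In EC vs. PG/VG 1 of the 4 was higher in EC, against 0.555% of all genes. The family is named for its likeness to bacterial glycerol-3-phosphate carriers, and SLC37A1 and SLC37A2 are known as exchangers of glucose-6-phosphate for phosphate in the endoplasmic reticulum. SLC37A2 was at 26.7, 29.2 and 67.5 CPM in control replicates 2, 3 and 4, at 26.6, 27.5 and 69.4 CPM in PG/VG and at 47.7, 49.8 and 89.7 CPM in EC. Within each batch the EC library was highest, while batch 4 was well above batches 2 and 3 in every condition. The LFC was 0.67 in EC vs. control (SE 0.092, adjusted p = 5.05e-05, edgeR) and 0.68 in EC vs. PG/VG (SE 0.091, adjusted p = 0.000334, edgeR), and both calls held in all 9 fits that left out a library. SLC37A1 averaged 4.87 ± 0.446 CPM without treatment, 5.93 ± 0.647 CPM with PG/VG and 7.59 ± 0.725 CPM with EC (SD, n = 3 each). Its LFC of 0.64 in EC vs. control passed the threshold (SE 0.15, adjusted p = 0.00511, edgeR). In PG/VG vs. control the LFC of SLC37A1 was 0.29, higher in 3 of 3 batches (edgeR, adjusted p = 0.289). Between EC and PG/VG it was 0.35 and did not pass the threshold (edgeR, adjusted p = 0.256).

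Of the 10 tested lipolysis cofactors and other lipases, 4 rose with EC, 1 rose with PG/VG and none fell. Over all genes tested, 8.07% rose with EC and 2.63% with PG/VG. Between EC and PG/VG 0 of the 10 passed the threshold, against 0.855% of all genes. PNPLA3, a lipid droplet protein related to PNPLA2, was at 3.49, 3.28 and 7.54 CPM in control replicates 2, 3 and 4, 5.49, 4.98 and 8.11 CPM in PG/VG and 5.63, 6.98 and 11.9 CPM in EC. It was higher in EC than in the control in every batch, with a fold change of 1.72 (LFC 0.78, SE 0.16, adjusted p = 0.00174, edgeR). The call held in all 9 fits that left out a library. With PG/VG the fold change of PNPLA3 was 1.33, with a 95% interval of 1.06 to 1.68 (edgeR, adjusted p = 0.147). Between EC and PG/VG it was 1.29 and did not pass the threshold (edgeR, adjusted p = 0.261). LPL, which hydrolyzes triglycerides of lipoproteins outside the cell, was at 4.51, 4.09 and 1.13 CPM in control replicates 2, 3 and 4, 6.80, 6.02 and 2.66 CPM in PG/VG and 6.63, 6.94 and 2.43 CPM in EC. It rose in both treatments, with a fold change of 1.67 in EC (edgeR, adjusted p = 0.00707) and 1.64 in PG/VG (edgeR, adjusted p = 0.0215). The PG/VG call of LPL was lost in 4 of the 6 fits without a control or PG/VG library, with an adjusted p of up to 0.139 in edgeR without PG/VG replicate 2, and its EC call was lost without EC replicate 3 (edgeR, adjusted p = 0.0541).

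LIPG, the endothelial lipase that acts mainly on phospholipids of lipoproteins, had a fold change of 1.76 with EC (edgeR, adjusted p = 0.00979). Its level was 1.27, 1.30 and 8.56 CPM in control replicates 2, 3 and 4, and 1.35, 1.66 and 19.2 CPM in EC, so most of the difference lay in batch 4. Without control replicate 4 the LFC fell to 0.33 (edgeR, adjusted p = 0.522), without EC replicate 4 to 0.38 (edgeR, adjusted p = 0.451) and without batch 4 to 0.21 (edgeR, adjusted p = 0.769). PG/VG libraries had 1.19, 0.985 and 10.4 CPM of LIPG, a fold change of 1.08 against the control (edgeR, adjusted p = 0.837). Between EC and PG/VG the fold change of LIPG was 1.63 (edgeR, adjusted p = 0.0844). LIPA, the acid lipase of lysosomes, was at 85.2, 76.0 and 122 CPM in control replicates 2, 3 and 4. It was at 90.3, 85.8 and 137 CPM in PG/VG and at 97.1, 96.1 and 132 CPM in EC. Its fold change of 1.16 in EC vs. control was at the threshold (edgeR, adjusted p = 0.04999) and passed it in none of the 9 fits that left out a library. With PG/VG the fold change of LIPA was 1.10 (edgeR, adjusted p = 0.271), and between EC and PG/VG 1.05 (edgeR, adjusted p = 0.735). Of its exon length, 6.01% overlaps genes on the opposite strand, among them IFIT2 and IFIT3. The LIPA fit without control replicate 3 had an adjusted p of 0.352 in edgeR, and the one without EC replicate 3 had 0.241.

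In the whole set of tested genes 8.07% rose with EC and 2.63% with PG/VG. Of the 10 tested genes of later glycerolipid synthesis, 1 rose in each treatment. This was LPIN3, a phosphatidate phosphatase that makes diglyceride. It was at 19.0, 23.0 and 27.2 CPM in control replicates 2, 3 and 4, 24.2, 29.5 and 38.3 CPM in PG/VG and 24.6, 26.6 and 39.4 CPM in EC, each treated library above the control of its batch. The fold change was 1.30 in EC (edgeR, adjusted p = 0.00742) and 1.32 in PG/VG (edgeR, adjusted p = 0.0118). The calls of LPIN3 were lost without control replicate 4 (edgeR, adjusted p = 0.0655 in EC and 0.0872 in PG/VG), without EC replicate 4 in EC (adjusted p = 0.0789) and without PG/VG replicate 2 or 4 in PG/VG (adjusted p = 0.0509 and 0.0675). Of the exon length of LPIN3, 13.3% overlaps EMILIN3 on the opposite strand.

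The remaining lists held no DEG. AQP11, the other aquaporin tested, had an LFC of 0.55 in EC vs. control (edgeR, adjusted p = 0.0995). The tested acyltransferases GPAT3 and GPAT4, relatives of GPAM, had an LFC of 0.32 and 0.051 in EC vs. control (edgeR, adjusted p = 0.139 and 0.683). TKFC, which phosphorylates dihydroxyacetone, had an LFC of 0.23 in EC (edgeR, adjusted p = 0.100) and 0.26 in PG/VG (edgeR, adjusted p = 0.115). Between EC and PG/VG the LFC of TKFC was −0.024 (edgeR, adjusted p = 0.948). G0S2 and ABHD5 belong to the list of lipolysis cofactors and other lipases, which did hold DEGs. The PNPLA2 inhibitor G0S2 had an LFC of −0.38 in EC (edgeR, adjusted p = 0.126) and the PNPLA2 activator ABHD5 one of 0.12 (edgeR, adjusted p = 0.377). For G0S2 the log2 differences in batches 2, 3 and 4 were −0.076, −0.062 and −1.01, so most of the difference lay in batch 4. Those of ABHD5 were 0.22, 0.23 and −0.075. The 5 tested genes for lipid droplet coat and assembly proteins had a median LFC of 0.0027 in EC vs. control, with PLIN2, the main droplet coat protein outside adipose tissue, at −0.11 (edgeR, adjusted p = 0.333). PLIN2 was at −0.13 in PG/VG vs. control (edgeR, adjusted p = 0.307). PLIN4, another member of the perilipin family, had an LFC of 0.62 in EC (edgeR, adjusted p = 0.282) and 0.88 in PG/VG (edgeR, adjusted p = 0.158), from 8 to 36 counts per library.

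**Figure D4:**
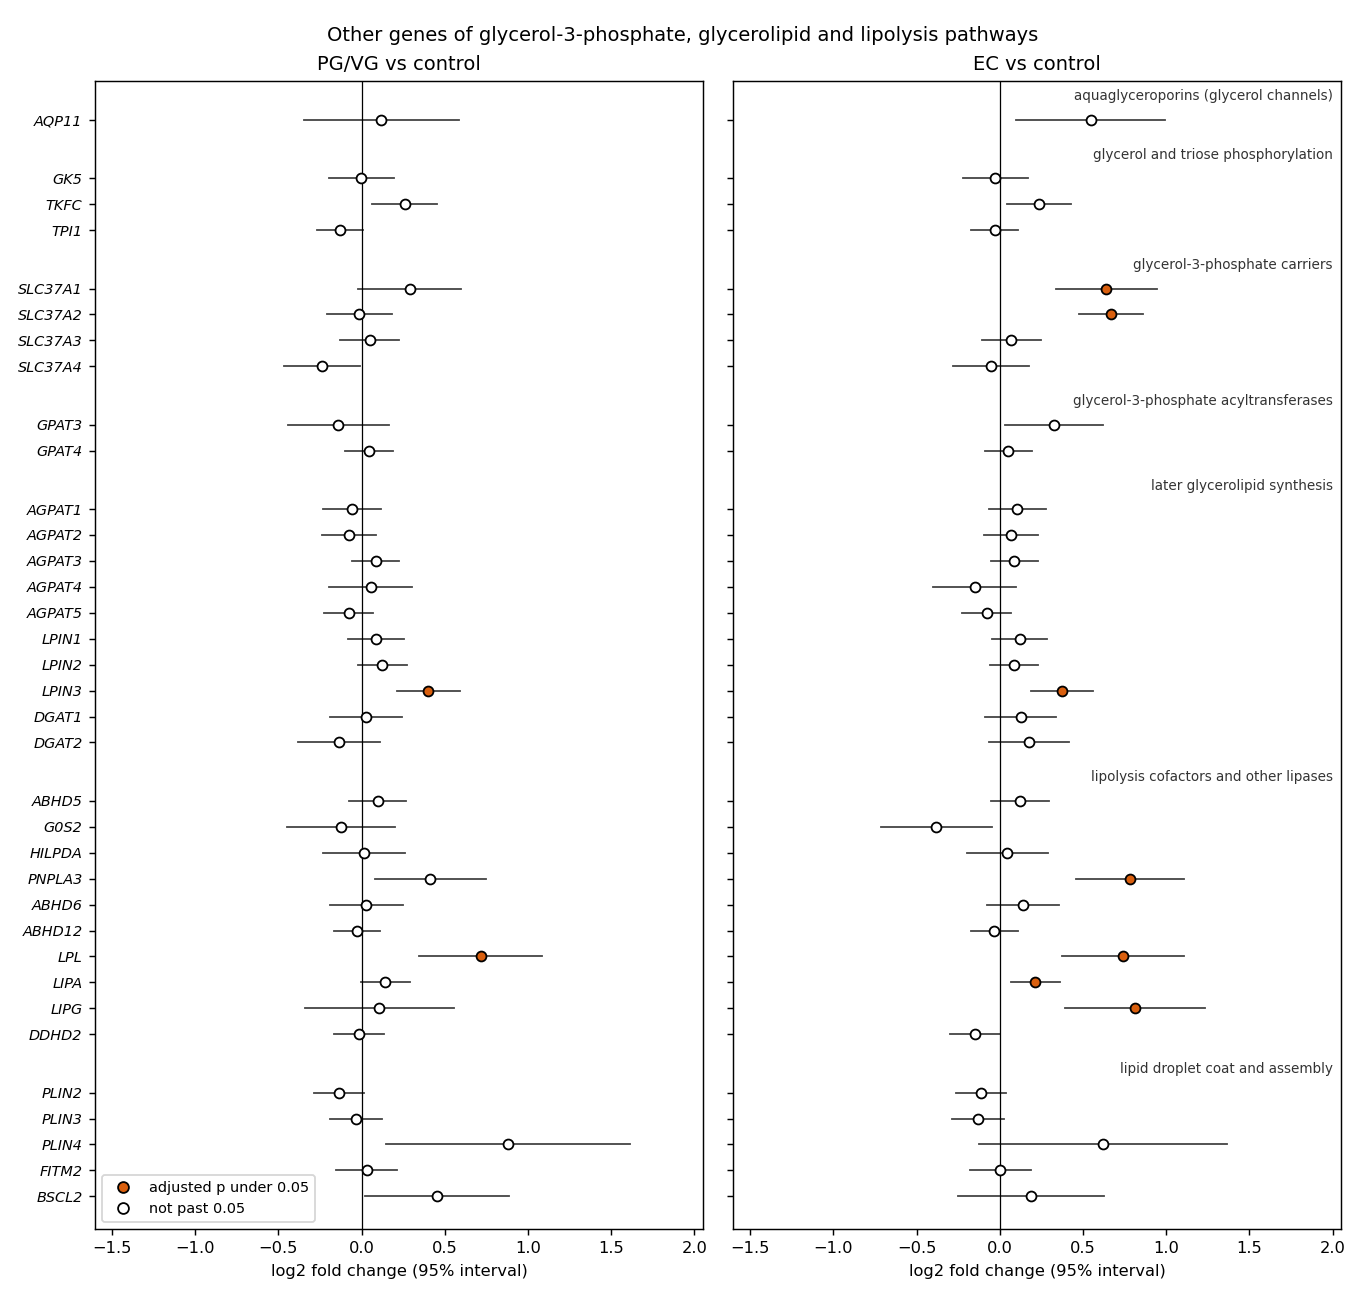
Fitted log2 fold changes of the 35 further genes tested, by list, in PG/VG vs. control and EC vs. control, with 95% intervals as lines and filled points for an adjusted p under 0.05. The 7 filled points in EC and 2 in PG/VG all lie to the right of 0, with LFC between 0.21 for LIPA and 0.81 for LIPG in EC.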

How the data were processed

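Poly(A) RNA of 9 BEAS-2B samples was sequenced by the authors. They used fastp for read filtering, STAR for mapping to GRCh38.p12 and featureCounts of Subread 2.0.4 for counting on exons, ignoring multi-mapping and multi-overlapping reads; the strand setting is not given in the sources used here. The deposited values are raw counts for 63187 genes, before batch adjustment, and every column was used. Groups and replicate numbers came from the sample labels.

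The 16030 genes that reached 10 counts in 3 or more libraries were tested with edgeR 4.0.16 (R 4.3.3), using TMM normalization, robust dispersions and a joint quasi-likelihood model of the 9 libraries with terms for condition and replicate number. The p-values were adjusted by Benjamini-Hochberg over all genes of a comparison with a threshold of 0.05. The SE is the absolute LFC over the root of the F statistic, and 95% intervals use the t distribution with the fit's degrees of freedom. CPM use TMM-scaled library sizes. The limit given for a count of 0 covers counting error only. The labels give each replicate number as a batch, and deviations from the condition mean correlated at 0.337 to 0.705 in the 9 pairs with the same number and at −0.541 to 0.420 in pairs with different numbers. The model holds the number as a replicate block. Replicates of a condition differed by more than sampling noise (lowest chi-square divided by the number of genes, 3.66).

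Members and lists were chosen with earlier results of these data known. Every one of the 10 genes is named, and genes of the wider lists where they passed the test, with AQP11, GPAT3, GPAT4, TKFC, G0S2, ABHD5, PLIN2 and PLIN4 added after their values were seen. Patterns were compared by Pearson correlation of log2 CPM with a prior count of 2. Coordinates, exon lengths and overlaps come from GENCODE 44 (GRCh38), which holds 62666 of the genes; promoters are from RefSeq on GRCh38.p14. Alternatives were no replicate block, RLE or library size scaling, no filter on low counts, a filter of 10 counts in each library, DESeq2 1.42.0 with the block, ComBat-Seq of sva 3.50.0 followed by DESeq2, the compared groups alone, and each library left out. The fit without batch 4 was added after seeing the data. The steps were tested on simulated data, in which the changes in EC were larger than the fitted LFC reported here. That test does not show how well changes of the reported size are recovered.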

Additional observations from a re-analysis of the deposited data

Results flagged for a closer look

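The further gene SLC37A2 differed between the treatments by the test of EC vs. PG/VG itself, with an LFC of 0.68 (edgeR, adjusted p = 0.000334), and was higher in EC in 3 of 3 batches. Its PG/VG and control means were 41.2 ± 24.5 and 41.1 ± 22.9 CPM, and its EC mean was 62.4 ± 23.7 CPM (SD, n = 3 each), with the batch 4 library highest in each condition. Without batch 4 the LFC was 0.85 (edgeR, adjusted p = 0.000534), and without the replicate block it was 0.60 and not past the threshold (edgeR, adjusted p = 0.9999). Conditions have 3 libraries each, too few for a test of single outlying libraries.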

How the results depend on the processing

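Without the replicate block, 0 of the 10 glycerol and lipolysis genes and 0 of the further genes were called in any comparison. With the block the further genes called were 7 for EC, 2 for PG/VG and 1 for EC against PG/VG. Over all genes, calls fell from 2157 to 16 for EC, from 727 to 1 for PG/VG and from 137 to 1 for EC against PG/VG without the block. ComBat-Seq and DESeq2 called 3099, 1735 and 658 genes. The 2 groups alone gave 1241 for PG/VG and 316 for EC against PG/VG. The fit without batch 4 gave 1227, 332 and 93. With no filter on low counts 35230 genes were tested instead of 16030. Calls for EC against PG/VG were then 309, or 0.877% of genes against 0.855% with the filter. For EC and PG/VG against the control 5.85% and 2.66% were called, against 13.5% and 4.54% with the filter. With each library left out calls ranged from 1163 to 2172, from 192 to 1077 and from 33 to 209. In EC vs. control the number of the 10 genes called was 1 in the model used and 2 with RLE normalization and with ComBat-Seq and DESeq2, where MGLL joined AQP3, 0 with no filter on low counts, with DESeq2 and the block and without batch 4, and 0 to 1 with each library left out; without EC replicate 3 the gene called was MGLL and not AQP3. Further genes called with each library left out numbered 4 to 6 in EC vs. control, with 4 without control replicate 4, 0 to 3 in PG/VG vs. control and 1 to 2 in EC vs. PG/VG. Without batch 4 they were 0 in PG/VG vs. control and 2 in EC vs. PG/VG, where 3 were called with no filter and with the 2 groups alone, and 2 with ComBat-Seq and DESeq2. In the other comparisons 0 of the 10 genes were called under every alternative.

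Directions turned for genes that were not past the threshold in any of these fits. Without batch 4 the LFC was −0.062 for GK in EC vs. control, 0.0012 for PGP in PG/VG vs. control, and 0.00013 for GPD1L and −0.047 for PGP in EC vs. PG/VG. PNPLA2 had 0.049, 0.020 and 0.029 in the 3 comparisons with library size as the only scaling, 0.0077 in PG/VG vs. control with no filter and 0.0047 in EC vs. PG/VG with at least 10 counts in every library. With each library left out, EC vs. control ranged from −0.050 to 0.079 for GK, −0.15 to 0.015 for PGP and −0.15 to 0.089 for PNPLA2. PG/VG vs. control ranged from −0.13 to 0.017 for GK, −0.13 to 0.0044 for GPD1L, −0.12 to 0.018 for GPAM and −0.079 to 0.037 for PNPLA2. EC vs. PG/VG ranged from −0.11 to 0.0044 for GPD1L, −0.064 to 0.17 for PGP, −0.13 to 0.11 for PNPLA2, −0.11 to 0.033 for MGLL and −0.20 to 0.067 for LIPE. The cause was not tested. AQP3 had 16 to 66 counts per library.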
